A study of Mus musculus with 12 samples.

Results

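The antigen presentation genes are 10 genes of the machinery that shows peptides to T cells, chosen by name as the rows H2-K1, H2-D1, B2m, Tap1, Tap2, Tapbp, Psmb8, Psmb9, H2-Ab1 and Cd74 of the 27978 genes in the deposited table. Their levels were measured by RNA sequencing of hippocampal tissue from mice after fecal microbiota transplantation (FMT), in 12 libraries of 3 groups with 4 libraries each. FMT-SP, which the series design calls FMT-DSS+SP, is the group with the neuropeptide substance P. It was compared with FMT-DSS, and both were compared with FMT-CON. All 3 groups received a transplant, and mice without one were not analysed here. The labels do not spell out CON and DSS, and they give neither the strain and age of the mice nor the time and route of substance P. They also do not say whether each library came from a separate animal, so the p-values below measure only the spread between these libraries.

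MHC class I molecules consist of a heavy chain, here encoded by H2-K1 and H2-D1, and the light chain beta-2-microglobulin, encoded by B2m. Peptides are cut by the proteasome, whose interferon-inducible catalytic subunits include Psmb8 and Psmb9, are carried into the endoplasmic reticulum by the transporter made of Tap1 and Tap2, and are loaded onto class I with the help of tapasin (Tapbp). Class II molecules, here represented by their beta chain H2-Ab1, are assembled with the invariant chain Cd74 and present peptides taken up from outside the cell. In the brain, class I genes are expressed at low levels by vessel cells, microglia and some neurons, and class II genes mainly by macrophages at the borders of the tissue and by activated microglia. Interferon gamma is a classical inducer of both classes, through factors that include IRF1, NLRC5 and CIITA.

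In the GENCODE vM21 annotation of GRCm38, 8 of the 10 genes lie on chromosome 17, in or next to the major histocompatibility complex. H2-K1 spans positions 33996017 to 34000347 on the minus strand and H2-D1 spans 35262730 to 35267499 on the plus strand. Psmb9 (34181987 to 34187764, minus strand) and Tap1 (34187553 to 34197225, plus strand) overlap at their 5' ends, and Psmb8, Tap2 and H2-Ab1 follow at 34197721, 34203527 and 34257689. B2m lies on chromosome 2, from 122147686 to 122153083. Cd74 lies on another chromosome. The submitters' processing notes name the older build mm8, so these positions describe the genes and not the deposited values.

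The promoters of 4 members are shown, because H2-K1, H2-D1 and B2m encode the class I dimer itself and Tap1 shares its promoter with Psmb9. Each is the window from 250 bases before to 50 bases after the annotated start (RefSeq, GRCm38.p6), read 5' to 3' on the strand of the gene. Capitals mark matches, on either strand, to 6 short motifs: the core of the interferon-stimulated response element (GAAA and GAAA with 2 bases between), TTCNNNGAA (gamma-activated site), GGGNNTTCC (NF-kB), TGACGTCA and its core TGACG (X2 box) and ATTGG (Y box, whose reverse complement reads CCAAT). The windows are chr17:34000298-34000597 on the minus strand for H2-K1, chr17:35262844-35263143 on the plus strand for H2-D1, chr2:122147437-122147736 on the plus strand for B2m and chr17:34187306-34187605 on the plus strand for Tap1.
H2-K1: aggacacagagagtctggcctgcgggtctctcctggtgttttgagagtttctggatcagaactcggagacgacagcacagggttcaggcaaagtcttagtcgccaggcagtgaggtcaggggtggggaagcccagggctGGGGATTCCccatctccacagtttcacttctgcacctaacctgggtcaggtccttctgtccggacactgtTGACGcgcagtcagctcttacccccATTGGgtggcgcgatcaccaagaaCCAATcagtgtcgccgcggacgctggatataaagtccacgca
H2-D1: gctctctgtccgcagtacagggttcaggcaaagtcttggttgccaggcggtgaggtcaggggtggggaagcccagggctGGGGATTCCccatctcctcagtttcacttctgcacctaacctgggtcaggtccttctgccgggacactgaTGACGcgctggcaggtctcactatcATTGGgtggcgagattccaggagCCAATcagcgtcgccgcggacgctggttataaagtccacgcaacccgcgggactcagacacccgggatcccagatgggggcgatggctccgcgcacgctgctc
B2m: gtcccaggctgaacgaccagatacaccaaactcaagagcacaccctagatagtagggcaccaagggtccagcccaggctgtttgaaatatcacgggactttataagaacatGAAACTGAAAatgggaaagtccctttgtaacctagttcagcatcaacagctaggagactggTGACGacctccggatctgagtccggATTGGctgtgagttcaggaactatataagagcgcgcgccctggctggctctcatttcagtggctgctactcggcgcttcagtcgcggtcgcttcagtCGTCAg
Tap1: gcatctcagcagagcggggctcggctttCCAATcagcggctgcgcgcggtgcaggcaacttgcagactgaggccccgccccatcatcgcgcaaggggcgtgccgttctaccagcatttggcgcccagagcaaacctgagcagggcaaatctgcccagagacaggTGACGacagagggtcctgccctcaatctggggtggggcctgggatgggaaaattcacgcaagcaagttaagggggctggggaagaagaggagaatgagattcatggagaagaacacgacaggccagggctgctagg

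The H2-K1 and H2-D1 windows aligned over 239 columns, of which 88.3% were identical. Both held GGGNNTTCC, then TGACG 70 bases further on, then ATTGG another 25 bases on. B2m had the same distance of 25 bases between TGACG and ATTGG. Of the 7 members with a RefSeq window, only B2m held an exact match to the searched interferon-stimulated response element core. Elements that depart from that pattern were not searched for, so the other windows are not shown to lack an interferon response element. Over these 7 windows (H2-K1, H2-D1, B2m, Tap1, Tapbp, Psmb8 and Psmb9), ATTGG occurred in 6 and TGACG in 5, against 37.4% and 20.8% of all 32851 windows. GGGNNTTCC occurred in 2 and TTCNNNGAA in 1, in Psmb8, against 5.82% and 8.30% of all windows, and the interferon-stimulated response element core in 1, in B2m, against 3.44%. TGACGTCA was in none of the 7 and in 1.79% of all windows, and no match overlapped one of another motif. The annotated starts of Tap1 and Psmb9 lie 226 bases apart on opposite strands, so their windows share 275 bases. The TGACG and ATTGG matches of Tap1 and Psmb9 are the same bases read on opposite strands, counted for each gene. As the H2-K1 and H2-D1 windows are also alike, the 7 windows are not independent. The counts were not tested against the shares of all windows.

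Levels are FPKM as the authors deposited them, that is, fragments divided by transcript length in kilobases and by M (1000000) mapped fragments. Read totals were not used here. The steps between low values put the depth at 31.5 to 37.3 M mapped fragments per library, which corresponds to 2692 to 4726 fragments for B2m, 64.0 to 199 for Tap1 and 4.05 to 59.9 for H2-Ab1. Counting error alone would therefore give an SD of 1.93% for B2m and 49.7% for H2-Ab1 in the library with the fewest fragments. The hippocampal label was met by all 8 markers of hippocampal neurons, which summed to 137.5 to 207.8 FPKM in every library. Markers of other brain tissue varied more, between 18.2 and 3840 FPKM in sum for choroid plexus and between 51.6 and 345 FPKM for striatum.

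The class I light chain was the most abundant member and the class II beta chain the least. Over the 12 libraries B2m averaged 117 ± 19.8 FPKM (SD, n = 12), H2-D1 21.2 ± 4.51, H2-K1 10.98 ± 3.02, Tapbp 7.27 ± 1.15 and Tap2 3.31 ± 0.80 FPKM, and each exceeded the next in 12 of 12 libraries. Psmb8 at 1.96 ± 0.46, Cd74 at 1.71 ± 0.77 and Tap1 at 1.08 ± 0.32 FPKM followed. Psmb8 exceeded Cd74 in 8 of 12 libraries and Cd74 exceeded Tap1 in 10 of 12, so these neighbours were within their spread. Psmb9 at 0.689 ± 0.20 and H2-Ab1 at 0.584 ± 0.34 FPKM came last, Psmb9 being the higher in 7 of 12.

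H2-K1, a class I heavy chain, had 8.41, 8.67, 11.5 and 9.27 FPKM in FMT-SP 1 to 4, 7.12, 17.8, 12.5 and 14.8 FPKM in FMT-DSS 1 to 4 and 10.5, 9.08, 12.1 and 9.89 FPKM in FMT-CON 1 to 4. The highest and the lowest of the 12 values were both in FMT-DSS. H2-D1, the other heavy chain, had 18.0, 20.98, 22.6 and 16.5 FPKM in FMT-SP, 15.9, 33.0, 22.95 and 21.5 FPKM in FMT-DSS and 24.4, 19.5, 20.4 and 18.7 FPKM in FMT-CON. Again FMT-DSS 2 was the highest library and FMT-DSS 1 the lowest. B2m had 94.996, 93.4, 120.0 and 119 FPKM in FMT-SP, 88.9, 146, 114 and 133 FPKM in FMT-DSS and 111, 110.3, 152 and 115 FPKM in FMT-CON, where FMT-CON 3 was the highest of all. The groups overlapped for all 3 genes. H2-K1 and H2-D1 are similar in sequence, and the way the authors counted reads that match both is not given in the sources used here, so the division between them is uncertain.

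The peptide transporter followed the same libraries. Tap1 had 0.712, 1.14, 1.17 and 1.29 FPKM in FMT-SP, 0.593, 1.81, 1.22 and 1.15 FPKM in FMT-DSS and 0.924, 0.816, 0.939 and 1.18 FPKM in FMT-CON. Its partner Tap2 had 2.44, 3.26, 4.27 and 3.47 FPKM in FMT-SP, 2.33, 5.12, 3.27 and 3.51 FPKM in FMT-DSS and 3.58, 2.50, 2.71 and 3.31 FPKM in FMT-CON. Both were highest in FMT-DSS 2 and lowest in FMT-DSS 1. Tapbp, the loading factor, had 5.93, 6.54, 8.35 and 6.72 FPKM in FMT-SP, 6.10, 9.97, 7.27 and 7.13 FPKM in FMT-DSS and 8.34, 7.10, 7.35 and 6.39 FPKM in FMT-CON. Here FMT-DSS 2 was again the highest, with FMT-SP 1 the lowest, and the groups overlapped.

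The immunoproteasome subunits differed from each other in their pattern. Psmb8, which takes the place of Psmb5 in the immunoproteasome, had 1.02, 1.76, 1.98 and 2.33 FPKM in FMT-SP, 1.54, 2.56, 2.34 and 1.66 FPKM in FMT-DSS and 1.53, 2.24, 2.45 and 2.11 FPKM in FMT-CON. Psmb9, which takes the place of Psmb6, had 0.690, 0.702, 1.08 and 0.602 FPKM in FMT-SP, 0.427, 0.379, 1.02 and 0.633 FPKM in FMT-DSS and 0.580, 0.747, 0.757 and 0.649 FPKM in FMT-CON. FMT-DSS 2 was thus the highest library for Psmb8 and the lowest for Psmb9, which rested on an estimated 19.1 to 53.8 fragments. Psmb8 amounted to 0.914% to 2.60% of the Psmb5 level, and Psmb9 to 0.453% to 1.28% of the Psmb6 level. Neither ratio differed between any 2 groups beyond the spread, with exact permutation p-values (two-sided, n = 4 each) between 0.257 and 0.943 over the 6 comparisons.

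The class II beta chain was near the lower limit of the measurement. H2-Ab1 had 0.0926, 0.352, 1.35 and 0.547 FPKM in FMT-SP, 0.115, 0.566, 0.639 and 0.704 FPKM in FMT-DSS and 0.623, 0.390, 0.743 and 0.889 FPKM in FMT-CON. Cd74, the invariant chain, had 0.625, 1.33, 2.63 and 1.38 FPKM in FMT-SP, 0.773, 2.98, 1.98 and 1.003 FPKM in FMT-DSS and 1.77, 1.41, 2.78 and 1.80 FPKM in FMT-CON. FMT-SP 1 and FMT-DSS 1 were the lowest pair of libraries for both genes, and the groups overlapped. The highest library was FMT-SP 3 for H2-Ab1 and FMT-DSS 2 for Cd74.

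**Figure D1:**
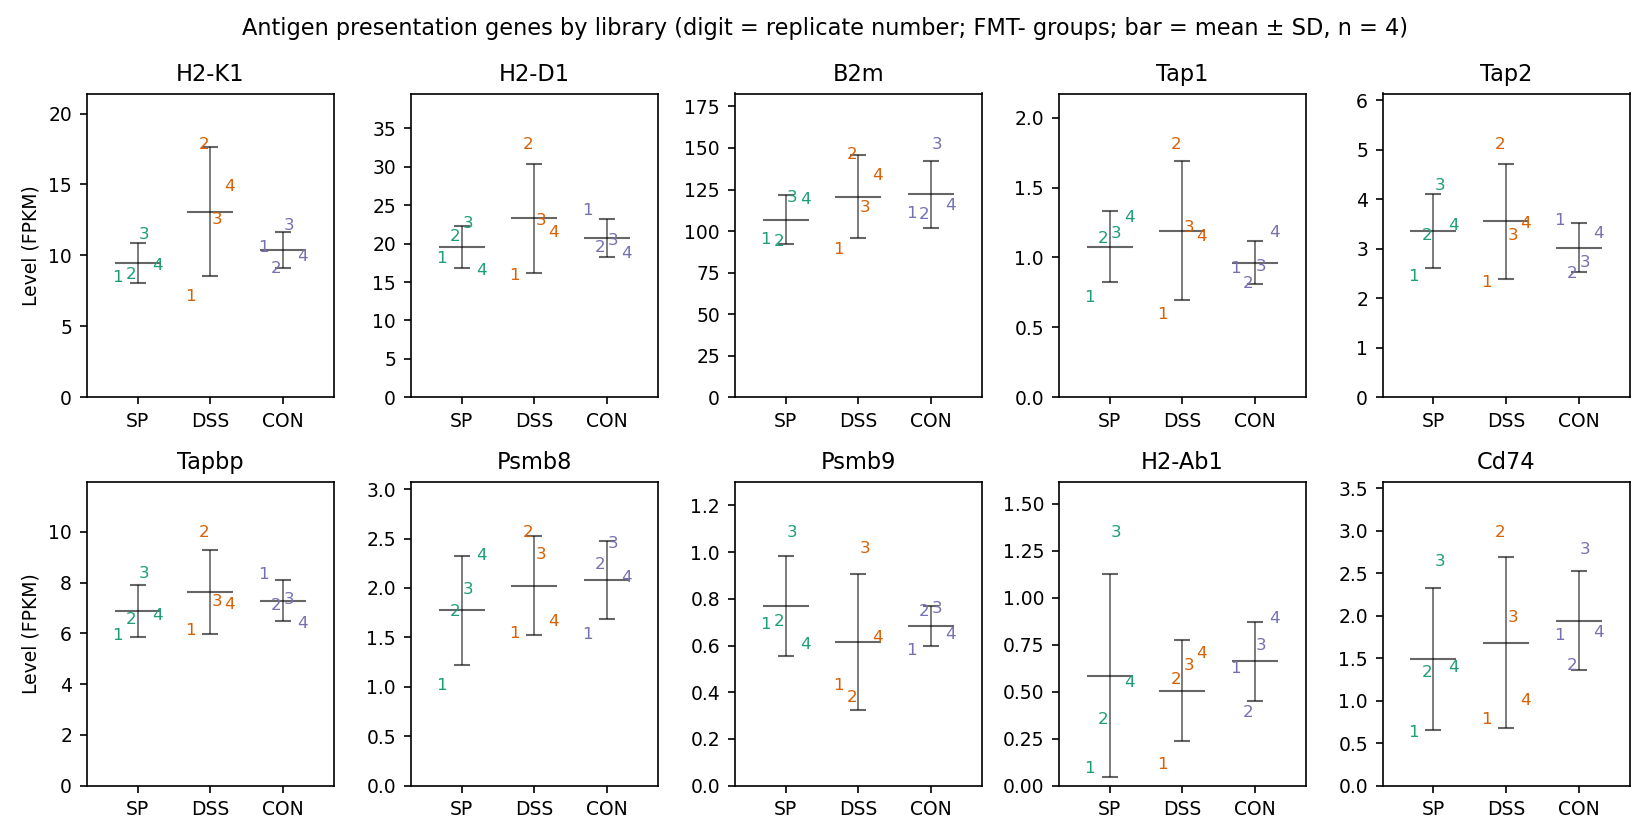
Level of each of the 10 genes in FPKM (vertical axes, each starting at 0) in FMT-SP, FMT-DSS and FMT-CON, with each library drawn as its replicate number and bars for the mean and SD of 4 libraries. The groups overlap for every gene, and FMT-DSS has the widest range for H2-K1, from 7.12 to 17.8 FPKM.

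The first comparison, FMT-DSS against FMT-CON, set groups not named for substance P against each other, and it showed no member that differed beyond the spread. H2-K1 averaged 13.1 ± 4.53 FPKM in FMT-DSS and 10.4 ± 1.27 FPKM in FMT-CON (SD, n = 4 each), the largest difference among the 8 tested members on the log2 scale used for the test. H2-D1 averaged 23.3 ± 7.13 FPKM in FMT-DSS and 20.7 ± 2.51 FPKM in FMT-CON, Tap1 1.19 ± 0.50 against 0.964 ± 0.15 FPKM and Tap2 3.56 ± 1.16 against 3.03 ± 0.50 FPKM. B2m averaged 121 ± 25.0 FPKM in FMT-DSS and 122 ± 20.3 FPKM in FMT-CON, and Cd74 averaged 1.68 ± 1.01 FPKM in FMT-DSS and 1.94 ± 0.59 FPKM in FMT-CON. Tapbp averaged 7.62 ± 1.65 against 7.30 ± 0.81 FPKM and Psmb8 2.02 ± 0.50 against 2.08 ± 0.39 FPKM.

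Changes were tested with limma on log2(FPKM + 1), a scale that understates changes of low genes, over the 12559 genes whose mean reached 1 FPKM. The 8 members above that limit were tested. Psmb9 and H2-Ab1 were below it. Of the 8 members, 0 passed an adjusted p of 0.05 (limma, Benjamini-Hochberg), against 0% of all tested genes. At an unadjusted p under 0.05 the count was 0 of 8 members, against 4.06% of all tested genes, made up of 1.25% higher and 2.81% lower. That split depended on the scaling, with 157 genes higher and 353 lower as deposited and 241 higher and 243 lower after median-ratio rescaling, where the count of members was also 0. The change of H2-K1 was 0.25 ± 0.21 (log2, SE; 95% interval -0.21 to 0.70; limma adjusted p = 0.971). Cd74 had the lowest change, -0.19 ± 0.28. The mean was higher in FMT-DSS for 5 of 8 members and lower for 3, against 40.3% higher and 59.7% lower of all tested genes, and the median change was 0.08 for the members and -0.03 for all genes. No member had groups without overlap, which 0.518% of all tested genes showed in the higher and 1.23% in the lower direction.

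The direction of these differences rested on single libraries. Without FMT-DSS 2, the mean was higher in FMT-DSS for 2 of 8 members and lower for 6, the median change was -0.07, and that of H2-K1 was 0.08. Without FMT-DSS 1, the mean was higher for 7 of 8 with a median of 0.20, and H2-K1 reached 0.49 with an unadjusted p of 0.00546 (limma adjusted p = 0.719). It was then 1 of 8 members at an unadjusted p under 0.05, against 6.81% of all tested genes.

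The second comparison, FMT-SP against FMT-DSS, set the group with substance P against the one that shares the rest of its name. It used the same 4 FMT-DSS libraries as the first. All 8 tested members had a lower mean in FMT-SP, against 41.1% of all tested genes (58.9% had a higher mean). Psmb9 and H2-Ab1, below the limit for the test, had a higher mean in FMT-SP, at 0.769 against 0.614 FPKM and 0.584 against 0.506 FPKM. Members also correlated with each other across libraries, so the 8 directions are not independent. Of the 8, 0 passed the adjusted test (limma), against 0% of all tested genes. At an unadjusted p under 0.05 the counts were 0 of 8 members and 2.5% of all tested genes, 1.27% higher and 1.23% lower. In genes, that was 159 higher and 155 lower as deposited, and 132 higher and 191 lower after median-ratio rescaling. With the replicate number as a block, whose pairing of these 2 groups rests on the data and not on the labels, 885 genes (7.05%) and again 0 of 8 members had an unadjusted p under 0.05, and the limma adjusted p of the members was at least 0.672. H2-K1 averaged 9.46 ± 1.40 FPKM in FMT-SP and 13.1 ± 4.53 FPKM in FMT-DSS (SD, n = 4 each), a change of -0.37 ± 0.21 (log2, SE; 95% interval -0.83 to 0.09; limma adjusted p = 0.999). H2-D1 averaged 19.5 ± 2.77 FPKM in FMT-SP and 23.3 ± 7.13 FPKM in FMT-DSS, a change of -0.21 ± 0.18. B2m averaged 107 ± 14.7 FPKM in FMT-SP and 121 ± 25.0 FPKM in FMT-DSS, a change of -0.16 ± 0.16. The other 5 changes lay between -0.13 for Psmb8 and -0.05 for Tap2, and the median over the members was -0.13, against 0.03 for all tested genes.

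This shared direction was not kept without FMT-DSS 2 or without FMT-SP 1. Without FMT-DSS 2, 4 of the 8 members had a lower and 4 a higher mean in FMT-SP, with changes of 0.07 for Tap1, 0.11 for Tap2, 0.0041 for Tapbp and 0.13 for Cd74, and a median over the members of -0.01. Without FMT-SP 1 the split was also 4 and 4. Without FMT-DSS 1, the change was -0.61 for H2-K1 and -0.37 for H2-D1, both at an unadjusted p under 0.05, as were 6.35% of all tested genes in that fit, with 0 members past the adjusted test. No member had groups without overlap, against 0.565% of all tested genes in the higher and 0.709% in the lower direction.

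The third comparison, FMT-SP against FMT-CON, had the fewest genes at an unadjusted p under 0.05 as fitted here. With array weights it had the most, 1146 against 432 and 329. Those 1146 genes were 9.12% of all tested genes, and 3 of 8 members were among them. Without weights, 0% of all tested genes passed the adjusted test and 0.358% had an unadjusted p under 0.05 (limma, 0.0637% higher and 0.295% lower). Of the 8 members 0 did either. The genes with an unadjusted p under 0.05 were 8 higher and 37 lower as deposited, and 12 higher and 28 lower after median-ratio rescaling. The mean was higher in FMT-SP for Tap1 and Tap2 and lower for the other 6, against 46.7% higher and 53.3% lower of all tested genes. B2m averaged 107 ± 14.7 FPKM in FMT-SP and 122 ± 20.3 FPKM in FMT-CON (SD, n = 4 each), a change of -0.19 ± 0.16 (log2, SE). Tap2 averaged 3.36 ± 0.75 FPKM in FMT-SP and 3.03 ± 0.50 FPKM in FMT-CON, a change of 0.11 ± 0.18. The median change was -0.11 for the members and -0.01 for all tested genes. Groups without overlap were seen for no member and for 0.191% of all tested genes in the higher and 0.303% in the lower direction.

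The members below the limit were tested singly. Psmb9 averaged 0.769 ± 0.21 FPKM in FMT-SP, 0.614 ± 0.29 FPKM in FMT-DSS and 0.683 ± 0.084 FPKM in FMT-CON (SD, n = 4 each), with exact permutation p-values (two-sided) of 0.4 for FMT-SP against FMT-DSS and 0.571 for FMT-DSS against FMT-CON. H2-Ab1 averaged 0.584 ± 0.54 FPKM in FMT-SP, 0.506 ± 0.27 FPKM in FMT-DSS and 0.661 ± 0.21 FPKM in FMT-CON, with exact permutation p-values of 1 and 0.457 for the same comparisons. Over all 10 members and 3 comparisons the exact p-values lay between 0.229 and 1, where the smallest that 4 against 4 libraries allow is 0.0286.

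**Figure D2:**
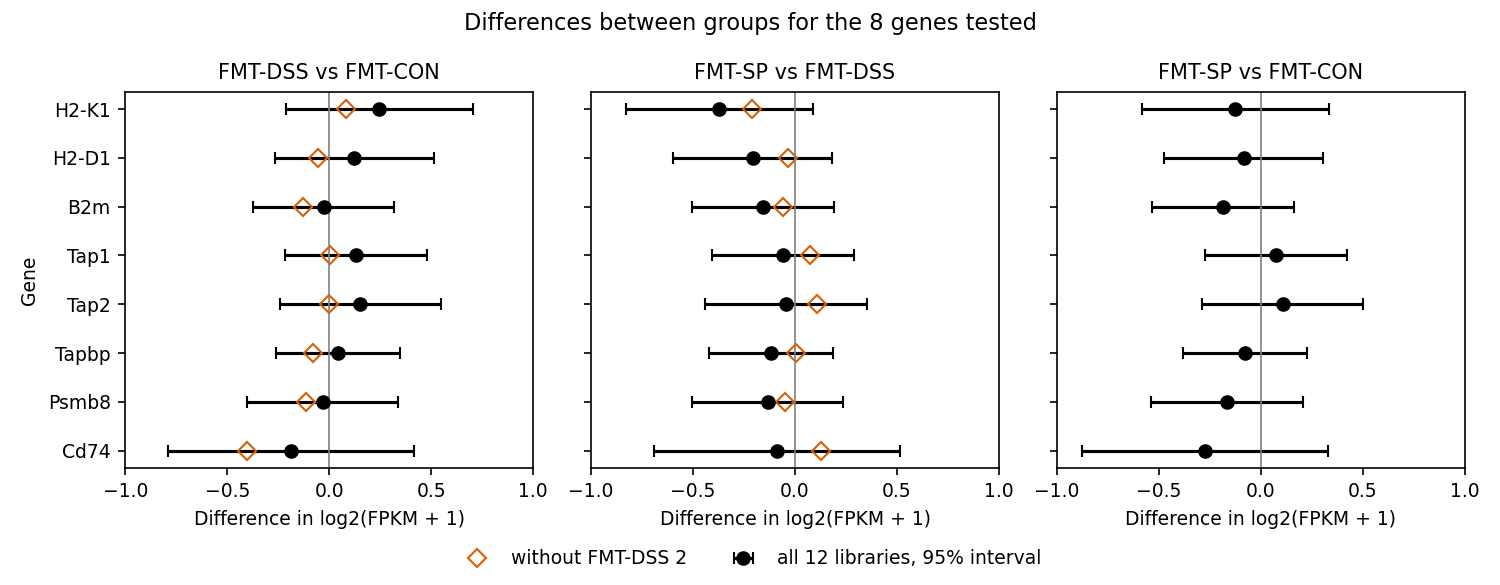
Change of each tested member on the log2(FPKM + 1) scale (horizontal axis) for the 3 comparisons. Filled points are changes with all libraries and their 95% intervals, and open diamonds are changes without FMT-DSS 2 in the comparisons that use it. Every interval with all libraries includes 0, and without FMT-DSS 2 the FMT-SP against FMT-DSS changes of Tap1, Tap2, Tapbp and Cd74 lie at or just above 0.

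The spread within FMT-DSS was wide. The coefficient of variation of the 8 tested members had a median of 18.7% in FMT-SP, 31.6% in FMT-DSS and 16.2% in FMT-CON, against 13.02%, 18.4% and 15.1% for all tested genes. FMT-DSS 2 was the highest of the 12 libraries for 7 of 10 members, while it was the highest for 11.9% of all tested genes. FMT-DSS 1 was among the lowest 3 libraries for 10 of 10 members (23.4% of all tested genes), and FMT-SP 1 for 9 of 10 (19.1%). Relative to the median of the other 11 libraries, the FMT-DSS 2 level was 2.11 times as high for Cd74, 1.80 for H2-K1, 1.62 for H2-D1, 1.59 for Tap1, 1.57 for Tap2, 1.40 for Tapbp and 1.28 for B2m. It was 0.908 times for H2-Ab1 and 0.550 times for Psmb9.

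**Figure D3:**
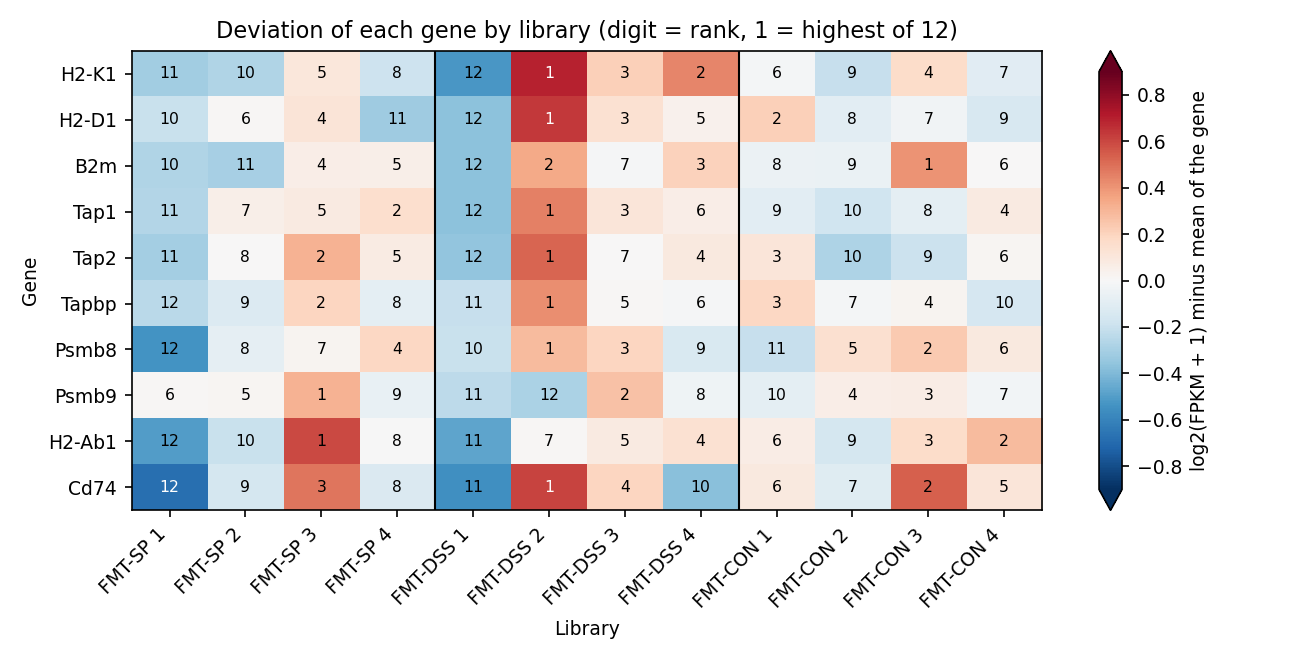
Deviation of each member from its mean over the 12 libraries, on the log2(FPKM + 1) scale, with members as rows and the libraries of FMT-SP, FMT-DSS and FMT-CON as columns. Colour gives the deviation and the digit gives the rank, 1 being the highest of 12. FMT-DSS 2 is above the mean for the class I genes and Cd74, and FMT-DSS 1 and FMT-SP 1 are below it for most members.

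Other markers stood apart in the same libraries. Summed levels of the 7 neutrophil markers ranged from 0.610 to 10.1 FPKM in FMT-SP, 0.259 to 188 FPKM in FMT-DSS and 0.633 to 8.13 FPKM in FMT-CON, with 188 FPKM in FMT-DSS 2 and 25.3 FPKM in FMT-DSS 4. Of the 7, 6 were highest in FMT-DSS 2, led by S100a9 with 101 FPKM, S100a8 with 58.6 FPKM, Ngp with 14.7 FPKM and Retnlg with 9.28 FPKM. The surface marker Ly6g was at 0 in 9 of 12 libraries and had 0.115 FPKM in FMT-DSS 2 and its highest level, 0.124 FPKM, in FMT-DSS 4. The 8 reactive astrocyte markers summed to 96.1 to 122 FPKM in FMT-SP, 98.2 to 495 FPKM in FMT-DSS and 100.2 to 147 FPKM in FMT-CON, again highest in FMT-DSS 2, as were 7 of the 8 genes. Lcn2 alone made up 285 of the 495 FPKM in FMT-DSS 2, followed by Serpina3n with 76.5 FPKM and Gfap with 73.9 FPKM. That library stood apart in more than the antigen presentation genes.

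Of the cells that carry class I and II in brain tissue, border macrophages had 8 markers. These summed to 4.05 to 5.97 FPKM in FMT-SP and 3.97 to 5.88 FPKM in FMT-CON. In FMT-DSS they ranged from 2.59 FPKM in FMT-DSS 1 to 10.3 FPKM in FMT-DSS 2, with 5 of the 8 highest in FMT-DSS 2 (11.9% of all tested genes). Only Stab1 of the 8 averaged at least 1 FPKM, and it was highest in FMT-DSS 4, at 4.13 FPKM against 3.35 FPKM in FMT-DSS 2. The 6 meningeal and fibroblast markers summed to 28.0 to 47.5 FPKM in FMT-SP and 21.2 to 58.6 FPKM in FMT-DSS. In FMT-CON they summed to 33.2 to 48.0 FPKM. Of the 6, 5 were lowest in FMT-DSS 1 or FMT-SP 1 (6.46% and 4.55% of all tested genes). The highest sum, in FMT-DSS 2, came mainly from Dcn, at 32.9 FPKM and the only one of the 6 with its highest level there, while Col1a1 was at its lowest there, at 0.633 FPKM. The 10 microglia markers summed to 139 FPKM in FMT-DSS 2, within 92.9 to 165 FPKM over the libraries. Of the 10, 1 was highest and 6 were lowest in that library. The 6 dendritic cell markers had their lowest sum there, 2.01 FPKM, and 0 of the 6 were highest there. Their highest sum, 4.94 FPKM, was in FMT-CON 4. The 4 B cell markers summed to 0.372 FPKM in FMT-DSS 2, with 0 of the 4 highest there, and to 0.862 FPKM in FMT-DSS 4. A mean of 1 FPKM was reached by 1 of the dendritic cell markers and by 0 of the B cell markers. The 8 endothelial markers summed to 96.8 FPKM in FMT-DSS 2 within 74.4 to 109.8 FPKM, but they moved apart. Cldn5, Pecam1 and Cdh5 were highest in FMT-DSS 2, at 31.7, 8.06 and 7.51 FPKM, and Slco1a4 was lowest there, at 5.95 FPKM. Of the T cell genes, Cd3e and Cd8a were each at 0 in 8 of 12 libraries, whereas Cd4 was above 0 in every library, from 0.0311 FPKM in FMT-DSS 2 to 3.28 FPKM in FMT-DSS 3. After FMT-DSS 3, Cd4 was highest in FMT-DSS 1 (1.17 FPKM), FMT-CON 1 (0.904) and FMT-CON 2 (0.741). Summed striatum markers were highest in the same libraries, at 345 FPKM in FMT-DSS 3 and 163, 167 and 147 FPKM in the others named. The source of the Cd4 level was not tested. The part of the listed cell types in the levels of the antigen presentation genes was not tested either. In bulk tissue, fewer cells of a type and less RNA per cell cannot be told apart.

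Most pairs of members correlated positively across libraries, and the pairs with Psmb9 were weaker when FMT-DSS 2 was included. Of the 45 pairs, 41 had a Pearson correlation above 0 over the 12 libraries, with a median r of 0.63. By both Pearson and Spearman permutation tests, 14 pairs passed an adjusted p of 0.05. No share over pairs of other genes was computed, so these counts are not shown to be particular to the members. The heavy chain H2-D1 and tapasin gave r = 0.90 (Spearman 0.85, permutation adjusted p = 0.00315 and 0.0225), and r = 0.76 without the 2 libraries farthest from the median of H2-D1. Tap1 and Tap2 gave r = 0.89 (Spearman 0.72, permutation adjusted p = 0.00315 and 0.0436), and 0.75 without the 2 farthest. H2-K1 and B2m gave r = 0.84 (Spearman 0.85, permutation adjusted p = 0.00795 and 0.0225), and 0.80 without the 2 farthest. The class II partners H2-Ab1 and Cd74 gave r = 0.74 (Spearman 0.68, permutation adjusted p = 0.0219 and 0.0489), and 0.57 without the 2 farthest.

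Of the 14 pairs, 13 kept an r above 0.5 without the 2 farthest libraries. The exception was H2-D1 with Tap2, at 0.78 with all libraries and 0.44 without FMT-DSS 1 and FMT-DSS 2, so that relation rests on those libraries. With group means subtracted, all 36 pairs without Psmb9 stayed above 0, as did 8 of the 9 with it. The 9 pairs with Psmb9 had r between -0.05 and 0.50 over the 12 libraries. Without FMT-DSS 2, where Psmb9 was lowest on an estimated 19.1 fragments and 7 other members highest, they had 0.34 to 0.63. Their median was then 0.51, against 0.58 for the 36 pairs without Psmb9, which ranged from 0.11 to 0.82.

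**Figure D4:**
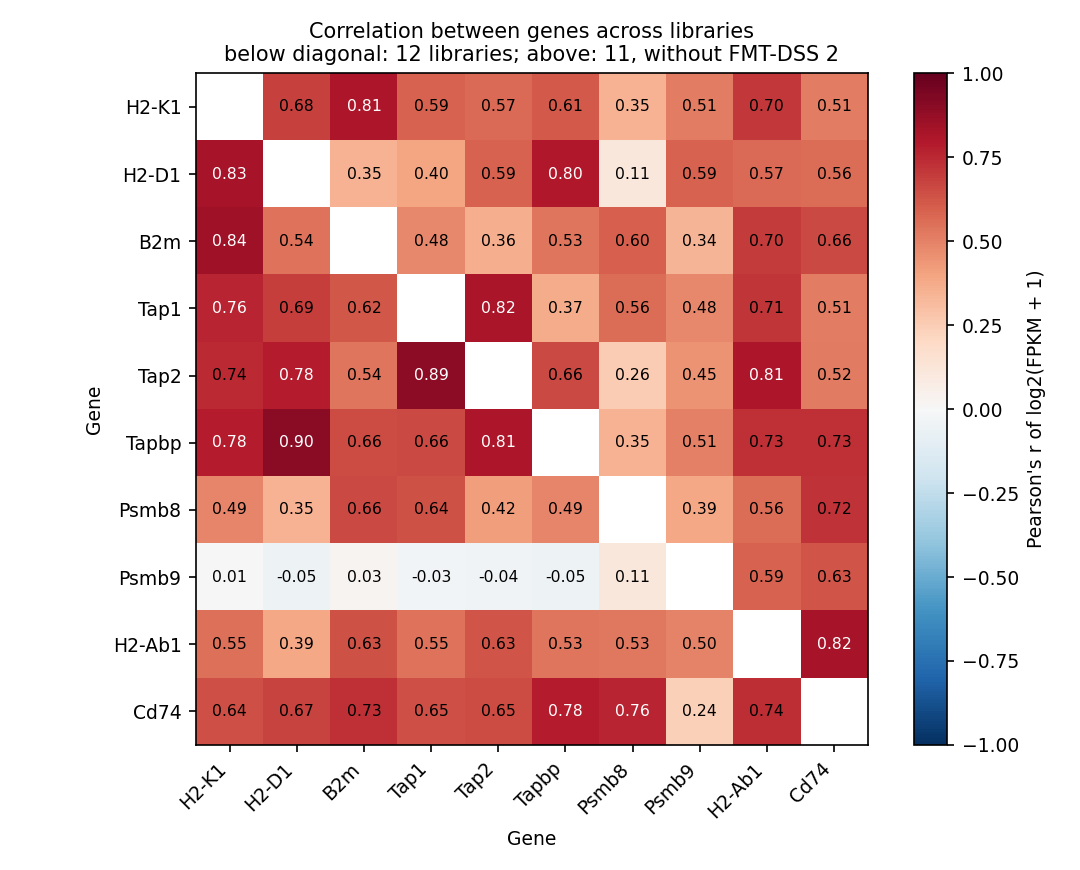
Pearson correlation of each pair of members over the 12 libraries, on the log2(FPKM + 1) scale, with the 10 genes in the same order on both axes. Below the diagonal, the class I heavy and light chain, transporter and tapasin genes form a block of high values, with a median r of 0.76. Above the diagonal, without FMT-DSS 2, every pair of these genes is lower, from 0.35 for H2-D1 with B2m to 0.82 for Tap1 with Tap2. The part of the Psmb9 row below the diagonal is close to 0.

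The genes whose pattern was most like the mean of the 7 tested class I pathway genes were found over all tested genes by Pearson correlation across the 12 libraries. They were Igfbp7 and Ifitm3 (both r = 0.92), Srgn (0.91), Tagln2, Ecscr, Hspb1 and Ifi30 (0.90 each), Ifitm2 (0.89) and Gpx3 and Gstk1 (0.88 each). All 10 were highest in FMT-DSS 2, where the class I mean was also highest, so this follows largely from how they were picked. Without FMT-DSS 2 their r lay between 0.77 for Gpx3 and 0.94 for Hspb1. Ifitm3, an interferon-induced membrane protein, ranged from 9.89 FPKM in FMT-SP 1 to 48.9 FPKM in FMT-DSS 2. Ifi30 encodes a lysosomal thiol reductase that acts in class II processing, and it ranged from 1.32 to 8.97 FPKM. For the mean of H2-Ab1 and Cd74 the closest genes were Plpp1 (r = 0.90) and Ctsh (0.86), the gene of the lysosomal protease cathepsin H, and Ctsh ranged from 5.07 FPKM in FMT-DSS 1 to 9.003 FPKM in FMT-DSS 2. Hspb1, a small heat shock protein, was among the 10 closest genes in both searches.

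The rest of the pathway was examined in 7 lists with 58 further genes, of which 36 were tested. Of these 36, 0 passed the adjusted test in any comparison (limma), against 0% of all tested genes. At an unadjusted p under 0.05 there were 2 in FMT-DSS against FMT-CON, 1 in FMT-SP against FMT-DSS and 0 in FMT-SP against FMT-CON. These are 5.56% and 2.78% of the 36, near the 4.06% and 2.5% of all tested genes, so the 3 genes are described with nothing read from their number. The 2 were chaperones of class I loading. Pdia3 averaged 59.0 ± 6.97 FPKM in FMT-DSS and 73.9 ± 4.62 FPKM in FMT-CON (log2 change -0.33 ± 0.11, SE; limma adjusted p = 0.966), and calreticulin (Calr) 166 ± 35.7 against 209 ± 20.1 FPKM (-0.35 ± 0.15). The 1 was the interferon gamma receptor chain Ifngr2, with 25.0 ± 2.05 FPKM in FMT-SP and 20.3 ± 4.09 FPKM in FMT-DSS (0.30 ± 0.14). The median change of the 36 genes was -0.03 in FMT-DSS against FMT-CON, 0.00 in FMT-SP against FMT-DSS and -0.04 in FMT-SP against FMT-CON.

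Among other class I heavy chains, H2-Q4 followed the members, with 3.82 FPKM in FMT-DSS 2 and 0.823 FPKM in FMT-DSS 1, whereas H2-T22 stayed between 4.54 and 6.16 FPKM. The class II alpha chain H2-Aa ranged from 0.0242 FPKM in FMT-DSS 1 to 1.32 FPKM in FMT-DSS 2, and the protease Ctss, which degrades the invariant chain, from 24.7 to 64.8 FPKM with its highest level in FMT-DSS 2. The transactivators of the 2 classes were scarce, with a mean over the 12 libraries of 0.083 FPKM for Nlrc5 and 0.011 FPKM for Ciita. Interferon gamma itself (Ifng) was above 0 in FMT-DSS 4 alone, at 0.096 FPKM.

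Of the 18 genes of the interferon-induced list, 1 (Ifitm3) was highest in FMT-DSS 2 and 5 were lowest there. Among the 9 of them above 1 FPKM the counts were 1 and 3, against 11.9% and 17.3% of all tested genes. Ifitm2 and Ifi30, which interferon also induces and which were highest in FMT-DSS 2, are outside the list. Isg15, a ubiquitin-like protein induced by interferon, was at its lowest there, at 0.750 FPKM. The receptor chain Ifngr1, by contrast, had 12.5 FPKM in FMT-DSS 2 and at most 7.23 FPKM in the other libraries. H2-Q4, H2-T22, H2-Aa, Ctss, Nlrc5, Ciita, Ifng, Ifngr1 and Isg15 were picked for this account after their values were seen.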

How the data were processed

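Total RNA from mouse hippocampal tissue was extracted with Trizol and sequenced on Illumina libraries, per the labels' protocols. The deposited values are FPKM per gene and library, computed by the authors. The submitters' processing notes name HISAT2 2.0 and the build mm8 without a role. The sources used here do not name the counter, annotation or filters. Groups and numbers came from the sample titles. The table has 27978 genes, with 0 identical library pairs.

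Values were taken as log2(FPKM + 1). The 12559 genes whose mean reached 1 FPKM entered 1 linear model over 12 libraries (limma 3.58.1, R 4.3.3, empirical Bayes with trend), with Benjamini-Hochberg adjustment over all of them, a threshold of 0.05 and two-sided tests. Exact permutation tests and correlations, with 100000 permutations and adjustment over 45 pairs, used scipy 1.17.1. The model was tested on simulated data. Depth was estimated from steps of low values in 4713 genes with 1 annotated transcript (GENCODE vM21), where 39.3% to 42.6% of low values lay within 0.05 of a whole fragment, against 10% for evenly spread values.

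The 10 members, the pathway and marker lists and the promoter motifs were chosen with earlier results of these data known. Named genes are the members, the 10 genes most like each class mean, and up to 4 genes of smallest p per pathway list. Marker genes and some list genes, several of them under 1 FPKM, were named after their values were seen. Xcr1, Ighm, Cd3d and Trbc2 were not analysed here. A gene of the pathway lists is not reported here by name, though counts include it. The labels do not say what a replicate number marks. Deviations from group means correlated above 0.1 in all 4 same-numbered pairs of FMT-SP and FMT-DSS (0.11 to 0.69). The lowest of these, 0.11 for FMT-SP 3 with FMT-DSS 3, was below the 0.20 of FMT-SP 3 with FMT-DSS 1. Correlations were above 0.1 in 2 of 4 pairs of FMT-SP and FMT-CON (-0.45 to 0.84) and in 3 of 4 pairs of FMT-DSS and FMT-CON (0.0075 to 0.72). The main fit and the exact permutation tests did not use the numbers as pairs in any comparison. Only the replicate block did. Alternatives covered the pseudocount, the filter, rescaling, weights, a replicate block, the groups in the model and left-out libraries. The share of mitochondrial values was 24.0% to 29.0% in the libraries numbered 4 and 15.9% to 20.3% in the others.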

Additional observations from a re-analysis of the deposited data

Results flagged for a closer look

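B2m in FMT-CON 3 stood apart within its group, at 152 FPKM against 110.3 to 115 FPKM in the other 3 FMT-CON libraries. The gap to the nearest library was 0.885 of the range of the group, above Dixon's 95% critical value for 4 samples. It was 1 of 42 groups of 4 examined, and chance alone gives about 1 in 20. Summed pituitary markers reached 3591 FPKM in the same library and at most 24.0 FPKM in the others, and their part in the B2m level was not tested. Without FMT-CON 3 the log2 change of B2m was 0.08 in FMT-DSS against FMT-CON and -0.08 in FMT-SP against FMT-CON, against -0.03 and -0.19 with all libraries.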

How the results depend on the processing

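With 4 libraries a group, the 95% interval of a log2 change, unadjusted, had a half-width of 0.30 to 0.60 for the tested members, so changes of that size or below could not be told from 0. Levels under 1 FPKM rest on few fragments, H2-Ab1 and Psmb9 above all. No gene and no member passed the adjusted test under any alternative. At an unadjusted p under 0.05, limma gave 510 genes in FMT-DSS against FMT-CON, 314 in FMT-SP against FMT-DSS and 45 in FMT-SP against FMT-CON, and with the replicate block 1274, 885 and 310. The block added 0 adjusted calls, and in this balanced design it cannot alter the changes of the members. By the labels, same-numbered libraries share only a number, and 7 of 12 libraries correlated best with their own number. With array weights 3 members had an unadjusted p under 0.05 in FMT-SP against FMT-CON, among 1146 genes, which are 9.12% of all tested genes. The members were B2m (-0.40), Psmb8 (-0.43) and Cd74 (-0.64), with a limma adjusted p of 0.535 for each.

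Of the changes of members under alternatives, 494 kept their sign and 34 reversed, and the cause was not tested. Part of the 494 was fixed in advance and is no measure of stability. The other filters, the replicate block and the fit of only the compared groups cannot alter a change. Nor can leaving out libraries of the group that is not compared. In FMT-DSS against FMT-CON, B2m was 0.015 after median-ratio rescaling, Psmb8 0.026 after quantile normalization and 0.033 without the libraries numbered 4, and H2-K1 and Tapbp -0.020 and -0.036 with array weights. Without FMT-DSS 2 and FMT-DSS 4, H2-K1 was -0.11, H2-D1 -0.11, Tap1 -0.060, Tap2 -0.087 and Tapbp -0.11 in that comparison. In FMT-SP against FMT-DSS without the same 2 libraries, H2-D1 was 0.022, B2m 0.074, Tap1 0.14, Tap2 0.19, Tapbp 0.032 and Cd74 0.060. Tap1 in FMT-SP against FMT-CON was -0.025 with array weights. Leaving out 1 library at a time, the ranges in FMT-DSS against FMT-CON were -0.13 to 0.11 for B2m, -0.12 to 0.046 for Psmb8, -0.053 to 0.28 for H2-D1, -0.00066 to 0.29 for Tap2 and -0.081 to 0.13 for Tapbp. In FMT-SP against FMT-DSS they were -0.20 to 0.072 for Tap1, -0.18 to 0.11 for Tap2, -0.23 to 0.011 for Psmb8, -0.29 to 0.13 for Cd74 and -0.21 to 0.0041 for Tapbp.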
